A study of Mus musculus with 8 samples.

Results

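The genes of 10 acetylcholine receptor proteins were examined in mouse vagal ganglia, 7 nicotinic subunit genes (Chrna3, Chrna4, Chrna6, Chrna7, Chrnb2, Chrnb3 and Chrnb4) and 3 muscarinic receptor genes (Chrm1, Chrm2 and Chrm3). They were chosen by symbol, and are 10 of the 55335 genes in the count table. All 10 were among the 17618 genes that passed the filter on low counts, so none was left out of the test. RNA was sequenced from whole vagal ganglia. The donors were wild-type mice that received HDM, letters that usually stand for house dust mite, a source of inhaled allergens, or saline, with tissue taken 1.5 h after challenge number 4. Each group had 4 libraries, and each library combined 6 to 8 ganglia from 3 to 4 mice, which makes the pool, not the animal, the replicate. The labels give batches 1 to 4 that equal the replicate number, with 1 HDM and 1 saline pool in each. The study calls the pools biological replicates, and the labels used here name neither strain, sex nor age.

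Nicotinic receptors are pentameric cation channels that open when acetylcholine binds and depolarise the cell rapidly. Alpha subunits carry the main part of the binding site, and beta subunits complete most neuronal receptors, with alpha3 and beta4 the main pair of autonomic ganglia and alpha4 and beta2 that of the brain. Muscarinic receptors are slower and act through G proteins. Sensory neurons of the vagus carry both kinds, and acetylcholine released in the airways, from nerves or epithelial cells, can act on their endings.

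The HDM libraries held 23952130 to 26670634 counts and the saline libraries 26868337 to 31281281. The sensory neuron genes Slc17a6, Scn10a, Scn9a, Prph, Uchl1 and Avil together reached 5738 to 6032 CPM (counts scaled to the library total and TMM factors) in HDM and 5257 to 5520 CPM in saline. Only 3 of these 6 genes had positive log2 fold changes, so the higher sum in HDM was not shared by the whole list. Of the 6 genes 1 was called (edgeR adjusted p under 0.05), where 1.38% of all genes tested were. Sympathetic neuron markers were also present. The 11 listed genes, among them Th, Dbh and Slc6a2, summed to 348 to 946 CPM in HDM and 184 to 446 CPM in saline, and HDM 4, the library of HDM replicate 4, held the 946 CPM. All 11 had positive log2 fold changes, as did 8551 of all 17618 genes tested, and 0 were called, where 1.38% of all genes were. Myelinating Schwann cell markers summed to 3000 to 3279 CPM in HDM and 3166 to 3765 CPM in saline, with 2 of 7 called. Satellite glia markers summed to 543 to 622 CPM in HDM and 616 to 693 CPM in saline, with 0 of 5 called. Both counts stand against the same 1.38% of all genes. The pools are whole tissue, in which fewer cells of a type and less RNA per cell cannot be told apart.

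In the comparison of HDM with saline, 0 of the 10 receptor genes passed an adjusted p of 0.05 (edgeR quasi-likelihood test with Benjamini-Hochberg adjustment over all 17618 genes), where 1.38% of all genes did. At an unadjusted p under 0.05 there were 3 of 10, Chrna6, Chrnb4 and Chrna3, against 18.1% of all genes. DESeq2 called 1, Chrna6 (7.38% of the genes to which it gave an adjusted p), limma-voom 0 (1.21%), and edgeR with no filter on low counts 2, Chrna6 and Chrnb4 (2.26%). At an adjusted p of 0.10 there was 1, Chrna6 (4.02%). With the replicate number as a block, 1 of 10 passed, Chrnb4 (4.05% of all genes), after a further correction for GC content 0 did (0.153%), with the GC correction alone 0 did (0.0%), and without HDM 4 also 0 (0.335%). Over these last 3 fits 2 or 3 of the 10 had an unadjusted p under 0.05. Of the 10 log2 fold changes 7 were positive and 3 negative, with a median of 0.14, against −0.0055 over all genes tested, and without HDM replicate 4 there were 5 of each with a median of 0.0079.

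**Figure D1:**
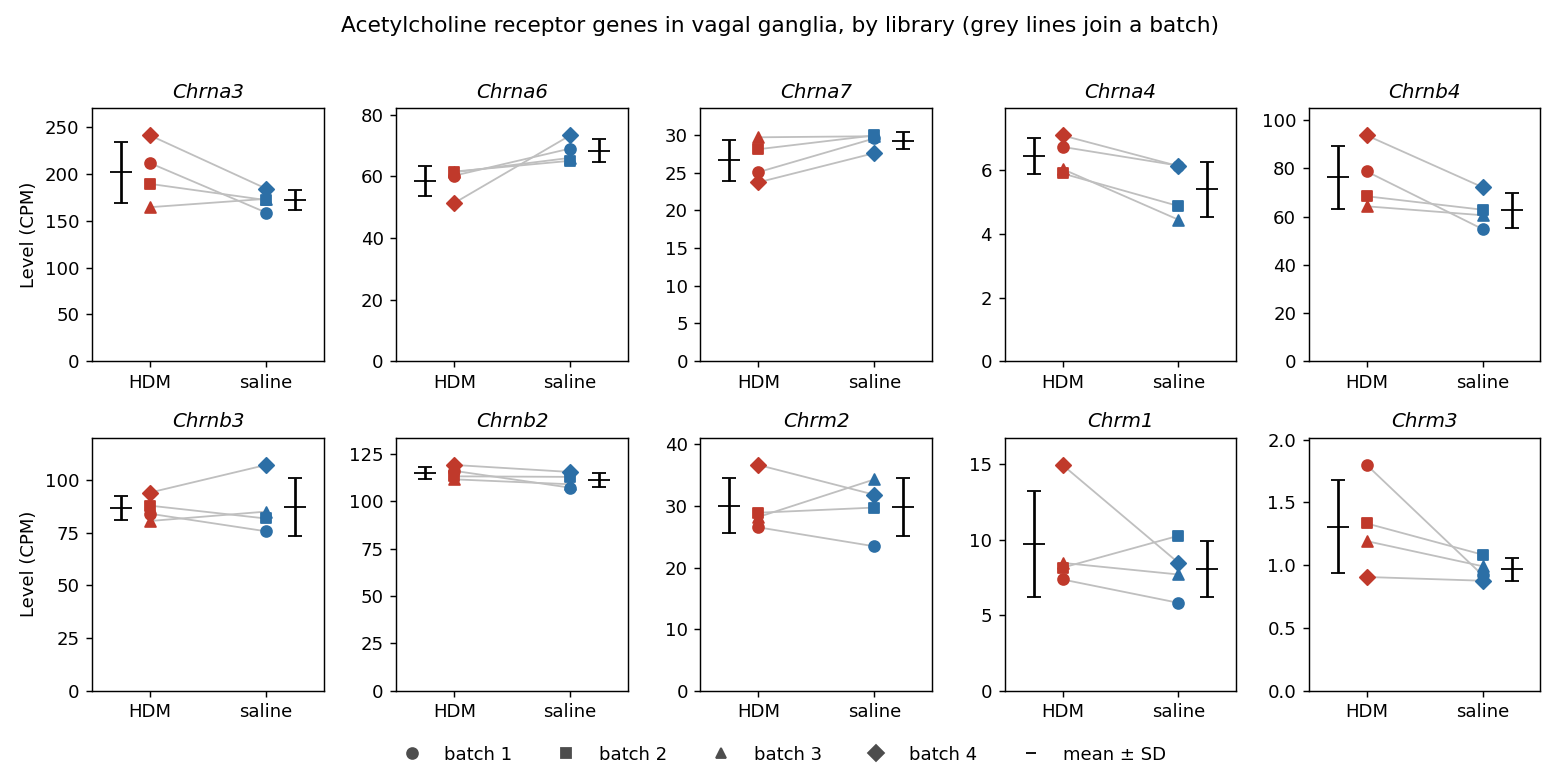
Level of each of the 10 receptor genes in CPM (y axis, from 0) in the 4 HDM and the 4 saline libraries, with marker shapes for batches 1 to 4, grey lines joining the libraries of a batch, and black bars for mean ± SD. Chrna6 is the only panel in which all HDM points (51.4 to 61.6 CPM) lie below all saline points (65.1 to 73.3 CPM). The groups were separated, in either direction, in 10.6% of all genes tested.

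Levels of different genes were compared per gene length, as RPKM (TMM-scaled CPM per kilobase of the gene length in the count table). Chrna3 was the most abundant of the 10 genes, with 38.3 ± 6.19 RPKM in HDM and 32.7 ± 1.99 RPKM in saline (SD, n = 4 each). It lay above Chrna6, the next gene, in 8 of 8 libraries, by 1.62-fold on average. Chrna6 averaged 21.9 RPKM over the 8 libraries, Chrnb4 18.7, Chrnb3 13.7 and Chrnb2 13.5. Chrna6 was above Chrnb4 in 6 of 8 libraries, and below it in HDM 1 (20.7 against 21.1 RPKM) and HDM 4 (17.7 against 25.2 RPKM). In saline Chrna6 had 22.4 to 25.2 RPKM and Chrnb4 14.7 to 19.4 RPKM, without overlap. Chrnb3 and Chrnb2 were not separated, with Chrnb3 higher in 4 of 8. Chrnb4 exceeded Chrnb3 in 8 of 8, by 1.36-fold, although the ranges over libraries overlapped. Chrna7 followed at 6.20 RPKM, 2.18-fold below Chrnb2 with no overlap between libraries, and Chrm2, the most abundant muscarinic gene among the 10, at 4.95 RPKM, below Chrna7 in 7 of 8. Chrm1 and Chrna4 lay at 1.37 and 1.18 RPKM and overlapped, and Chrm3 was last at 0.18 RPKM.

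Taken as shares of the summed RPKM of the 4 alpha genes, Chrna3 made up 58.0% ± 5.67 in HDM and 51.2% ± 1.58 in saline, Chrna6 30.9% ± 4.24 in HDM and 36.9% ± 1.30 in saline, and Chrna7 9.08% ± 1.54 in HDM and 10.2% ± 0.756 in saline (SD, n = 4 each). Chrna4, the alpha subunit most common in brain, made up 1.95% in HDM and 1.69% in saline. Among the 3 beta genes the shares were closer together. Chrnb4 made up 42.6% ± 3.12 in HDM and 38.3% ± 0.76 in saline. Chrnb3 made up 28.5% ± 1.44 in HDM and 31.2% ± 1.76 in saline, and Chrnb2 28.9% ± 1.92 in HDM and 30.5% ± 2.08 in saline. The 7 nicotinic genes together summed to 113.5 ± 8.88 RPKM in HDM and 107.6 ± 7.03 RPKM in saline, ranges that overlapped.

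**Figure D2:**
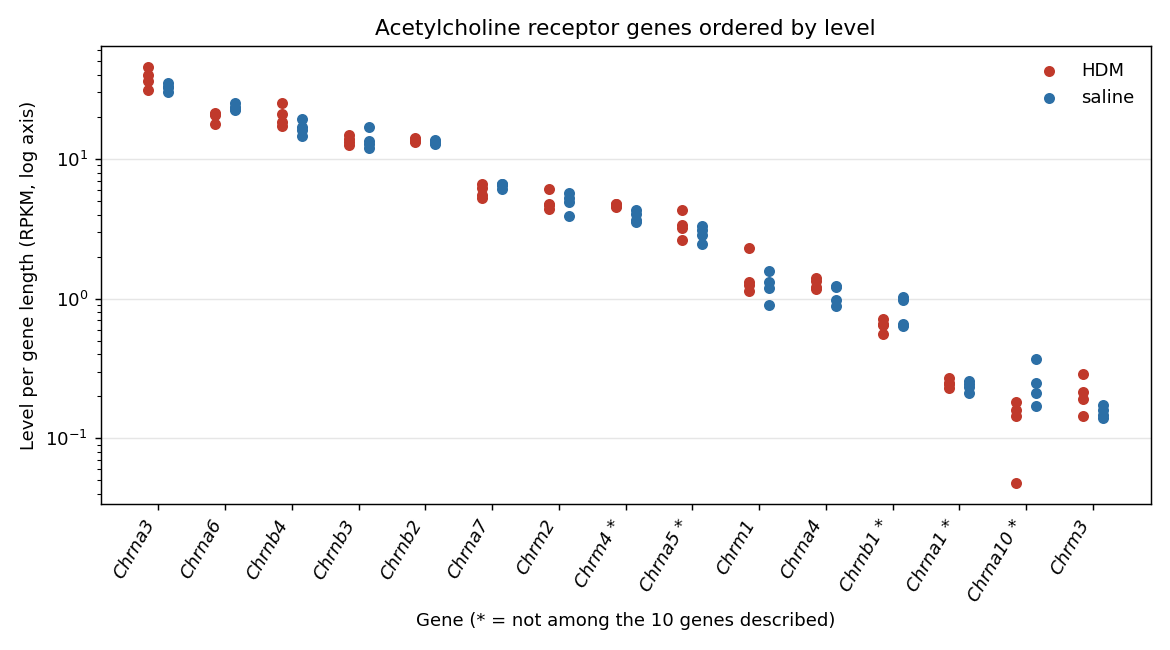
Level per gene length in RPKM (y axis, logarithmic) of the 15 acetylcholine receptor genes that passed the filter, ordered from high to low, with each HDM library as a red point left of each saline library as a blue point. Chrna3 stands at the top near 36 RPKM and Chrm3 at the bottom near 0.2 RPKM, while genes marked with a star, Chrm4 and Chrna5 among them, are not among the 10.

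Chrna3 (ENSMUSG00000032303, GRCm38 chromosome 9, 55010111 to 55026562, minus strand) and Chrnb4 (ENSMUSG00000035200, chromosome 9, 55028154 to 55048779, minus strand) encode the alpha3 and beta4 subunits and lie 1591 bases apart. Chrna5, the gene of an accessory subunit, is 2331 bases from Chrna3 on the other side.

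For a view of the sequence in front of genes whose levels moved together, the 250 bases before the RefSeq start (GRCm38.p6) are shown for Chrna3 and Chrnb2 (r = 0.886 in log2 CPM over the 8 libraries, the test stands with the other pairs). Both are read 5′ to 3′ on the minus strand, and capitals mark matches to GGGCGG on either strand, the letters known as a GC box.
Chrna3, chr9:55026563-55026812: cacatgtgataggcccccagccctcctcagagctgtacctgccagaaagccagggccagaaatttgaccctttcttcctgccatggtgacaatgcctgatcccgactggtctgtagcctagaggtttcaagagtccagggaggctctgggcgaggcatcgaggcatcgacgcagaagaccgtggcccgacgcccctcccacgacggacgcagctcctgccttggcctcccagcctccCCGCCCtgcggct
Chrnb2, chr3:89764633-89764882: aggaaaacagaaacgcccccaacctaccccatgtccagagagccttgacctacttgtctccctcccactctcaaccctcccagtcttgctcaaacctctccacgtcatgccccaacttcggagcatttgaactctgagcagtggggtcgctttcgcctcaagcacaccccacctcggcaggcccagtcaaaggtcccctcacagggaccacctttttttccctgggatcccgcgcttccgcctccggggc
The Chrna3 window holds 1 match and the Chrnb2 window 0, while 32.7% of all 32851 windows of this length in the promoter table hold at least 1. Of the 10 genes, 7 had an entry in that table, and Chrna6, Chrnb3 and Chrm1 had none. The window of Chrnb4 holds 0 matches and is not shown, because GENCODE M21 places most of it inside the transcribed gene.

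Chrna3 had 211.6, 189.4, 164.5 and 241.2 CPM in HDM replicates 1 to 4, and 158.8, 172.1, 173.4 and 184.4 CPM in saline replicates 1 to 4. The groups overlapped, since HDM 3 lay below saline 2, 3 and 4. The log2 fold change of HDM over saline was 0.23 (SE 0.091, edgeR adjusted p = 0.208), positive in 3 of 4 batches, and 0.13 without HDM 4. Chrnb4 had 78.7, 68.4, 64.2 and 93.7 CPM in the HDM libraries, against 54.8, 62.8, 60.5 and 72.2 CPM in the saline libraries. HDM 4 and HDM 1 were above every saline library and the other HDM libraries were not. Its log2 fold change was 0.28 (SE 0.105, edgeR adjusted p = 0.177), with HDM higher in 4 of 4 batches, and it was 0.17 without HDM 4 (adjusted p = 0.409). With the replicate block Chrnb4 rose by 0.28 (SE 0.067, edgeR adjusted p = 0.0495), a call that ended with the GC correction added to the block (0.25, adjusted p = 0.141) and with the block without both libraries of batch 4 (0.24, adjusted p = 0.16). Chrna5, outside the 10, averaged 10.5 ± 2.17 CPM across HDM pools and 9.15 ± 1.15 CPM across saline pools, and its log2 fold change of 0.20 (SE 0.137) had an edgeR adjusted p of 0.475 and was 0.057 without HDM 4.

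Chrna6 (ENSMUSG00000031491, chromosome 8, 27403212 to 27413944, minus strand) encodes an alpha subunit best known from dopamine neurons and the retina. It had 60.3, 61.6, 61.4 and 51.4 CPM in HDM 1 to 4, and 69.1, 65.1, 66.0 and 73.3 CPM in saline 1 to 4. All HDM libraries were below all saline libraries, as were 4.39% of the genes tested, while 10.6% were separated in either direction. The mean was 58.6 ± 4.88 CPM in HDM and 68.4 ± 3.71 CPM in saline, a log2 fold change of −0.22 (SE 0.062, edgeR adjusted p = 0.0891). It had the smallest p of the 10 genes and stayed above the threshold, also with the block (−0.22, adjusted p = 0.0903) and with block and GC correction (−0.20, adjusted p = 0.214). DESeq2 called it lower (−0.225, adjusted p = 0.0223). HDM 4 was the lowest library and held the highest sympathetic marker sum, and without it the log2 fold change was −0.16 (edgeR adjusted p = 0.19).

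Chrnb3 (ENSMUSG00000031492, chromosome 8, 27368711 to 27399730, plus strand) encodes an accessory subunit that often assembles with alpha6, and its gene lies 3481 bases from Chrna6. It had 84.1, 88.0, 80.7 and 94.2 CPM in HDM 1 to 4, and 75.8, 81.8, 85.1 and 107.3 CPM in saline 1 to 4. The HDM values lay inside the saline range, and the log2 fold change was −0.013 (SE 0.088, edgeR adjusted p = 0.955), with HDM higher in 2 of 4 batches. The ratio of Chrna6 to Chrnb3 RPKM was 1.57, 1.54, 1.67 and 1.2 in HDM 1 to 4, against 2.0, 1.74, 1.7 and 1.5 in saline 1 to 4. It was lower in HDM in 4 of 4 batches, and the groups overlapped (1.49 ± 0.205 in HDM, 1.73 ± 0.205 in saline, exact permutation test, 2-sided, p = 0.2, where 70 assignments allow 0.0286 at the least). This ratio was chosen after the values were seen.

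Chrna7 (ENSMUSG00000030525, chromosome 7, 63098692 to 63212569, minus strand) encodes the alpha7 subunit, which can form a calcium-permeable receptor on its own. It had 25.1, 28.1, 29.7 and 23.7 CPM in HDM 1 to 4, and 29.5, 29.9, 29.8 and 27.6 CPM in saline 1 to 4. HDM 1 and HDM 4 were below every saline library, while HDM 2 and HDM 3 were not. The log2 fold change was −0.13 (SE 0.071, edgeR adjusted p = 0.34), with HDM lower in 4 of 4 batches, and it was −0.081 without HDM 4 and −0.075 with block and GC correction.

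Chrnb2 (ENSMUSG00000027950, chromosome 3, 89746195 to 89764632, minus strand), the gene of the most widespread neuronal beta subunit, had the smallest SE of the 10. It had 116.2, 113.3, 111.7 and 119.3 CPM in HDM 1 to 4, and 107.3, 113.0, 109.1 and 115.6 CPM in saline 1 to 4. Its log2 fold change was 0.049 (SE 0.042, edgeR adjusted p = 0.571) and −0.0016 with the GC correction alone. An exon of Chrnb2 overlaps Adar on the opposite strand, and with the strand setting of the counting not given, reads of the 2 genes cannot be told apart there. Chrna4 (ENSMUSG00000027577, chromosome 2, 181018380 to 181043546, minus strand) had 5.90 to 7.10 CPM in HDM and 4.45 to 6.15 CPM in saline, from 130 to 189 counts per library. HDM was higher in 4 of 4 batches, with a log2 fold change of 0.26 (SE 0.128, edgeR adjusted p = 0.31). The Chrna4 value was 0.17 with the GC correction alone (edgeR adjusted p = 0.626) and 0.18 with block and GC correction (adjusted p = 0.488).

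Among the muscarinic genes, Chrm1 and Chrm3 encode receptors that couple to Gq and phospholipase C, and Chrm2 one that couples to Gi. Chrm2 (ENSMUSG00000045613, chromosome 6, 36388084 to 36528414, plus strand) had 26.5, 28.9, 28.2 and 36.7 CPM in HDM 1 to 4, and 23.4, 29.7, 34.3 and 31.8 CPM in saline 1 to 4. The groups overlapped over most of their range, and the log2 fold change was 0.012 (SE 0.114, edgeR adjusted p = 0.971). Chrm1 (ENSMUSG00000032773, chromosome 19, 8663789 to 8683587, plus strand) had 7.36, 8.15, 8.46 and 14.9 CPM in HDM 1 to 4, against 5.82, 10.3, 7.70 and 8.47 CPM in saline 1 to 4. HDM 4 alone lay above the saline range. The log2 fold change of 0.27 (SE 0.21, edgeR adjusted p = 0.527) rested on that library, and was −0.015 without it. Exons of Chrm1 and Chrm2 overlap annotated genes on the opposite strand, Gm22820 and 9330158H04Rik.

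Chrm3 (ENSMUSG00000046159, chromosome 13, 9875486 to 10360847, minus strand), the receptor that contracts airway smooth muscle, was the scarcest of the 10, with 24 to 43 counts per library. It had 1.80, 1.33, 1.19 and 0.91 CPM in HDM 1 to 4, and 0.92, 1.08, 0.99 and 0.88 CPM in saline 1 to 4. HDM was higher in 4 of 4 batches, the groups overlapped through HDM 4, and the log2 fold change was 0.43 (SE 0.235, edgeR adjusted p = 0.356). It was 0.24 without HDM 1 (adjusted p = 0.682), 0.21 without both libraries of batch 1 (adjusted p = 0.744) and 0.57 without HDM 4 (adjusted p = 0.293). Smooth muscle and pericyte markers, which stand for some of the cells that carry Chrm3 elsewhere, summed to 100.4 to 124.5 CPM in HDM and 106.8 to 128.1 CPM in saline. The part of these or other cells in the Chrm3 level was not tested.

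**Figure D3:**
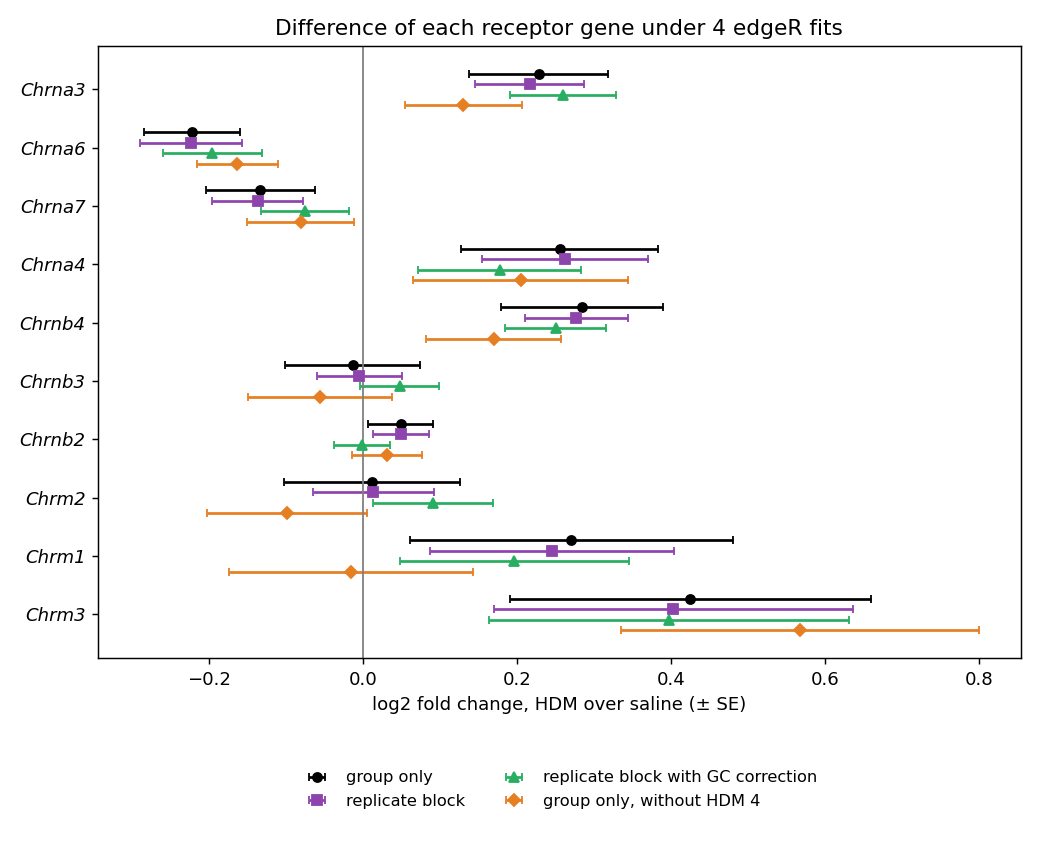
Log2 fold change of HDM over saline (x axis, points, with bars for ± SE) of each of the 10 genes under 4 edgeR fits, group only in black, with the replicate block in purple, with block and GC correction in green, and group only without HDM 4 in orange. Chrna6 stays on the negative side in all 4 fits, from −0.22 to −0.16, while Chrm1 moves from 0.27 to −0.015 when HDM 4 is left out.

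Of the 11 other acetylcholine receptor genes in the table, 5 were tested and 0 passed in edgeR, where 1.38% of all genes did, while Chrm4 and Chrna10, 2 genes, had an unadjusted edgeR p under 0.05, as did 18.1% of all genes. Chrm4, which encodes a further Gi-coupled muscarinic receptor, had 6.86, 6.85, 6.48 and 6.61 CPM in HDM 1 to 4, and 6.18, 5.26, 5.13 and 5.78 CPM in saline 1 to 4. All HDM libraries were above all saline libraries, as were 6.25% of the genes tested (log2 fold change 0.26 with SE 0.101, edgeR adjusted p = 0.192; block and GC correction together gave 0.17, adjusted p = 0.518). Per gene length, Chrm4 at 4.65 ± 0.13 RPKM in HDM and 3.88 ± 0.34 RPKM in saline was close to Chrm2 at 4.97 ± 0.74 RPKM in HDM and 4.93 ± 0.77 RPKM in saline, with the table's length of Chrm4, 1440 bases, shorter than that of the other muscarinic genes among the 10. Chrna10, from 3 to 30 counts per library, had a log2 fold change of −0.89 (SE 0.381, edgeR adjusted p = 0.238) and shares exon bases with Art1 on the opposite strand. The muscle subunit genes Chrna1 and Chrnb1 had 1.09 and 1.63 CPM in HDM and 1.04 and 2.08 CPM in saline. Chrnd had 0 counts in all 8 libraries, which allows up to 0.0956 to 0.126 CPM (3 counts of a library's total, counting error only), and Chrng had 1 count in all. Chrna2, Chrna9, Chrne and Chrm5 had 6 to 39 counts over all libraries. The median log2 fold change of the 5 tested genes was 0.073.

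The receptor genes were set against the summed CPM of 3 marker lists over the 8 libraries, on log2 scales, which gave 30 relations (exact permutation tests over pairings, 2-sided). Nodose neurons, the larger placode-derived part of the vagal ganglion, were marked by 7 genes, among them the ATP receptor genes P2rx2 and P2rx3, which summed to 891.5 to 1124 CPM in HDM and 907 to 1021 CPM in saline. Chrna7 was lower where this sum was higher (Pearson r = −0.974, p = 0.000273, adjusted p = 0.00819; Spearman rho = −0.905, p = 0.00456, adjusted p = 0.137), and r was −0.972 without HDM 1 and HDM 4, the libraries farthest from the median. Chrna3 was higher with it (r = 0.939, p = 0.000818, adjusted p = 0.0104; rho = 0.81, p = 0.0218, adjusted p = 0.158; r = 0.79 without these libraries), and so was Chrnb4 (r = 0.914, p = 0.00104, adjusted p = 0.0104; rho = 0.786, p = 0.0279, adjusted p = 0.158; r = 0.713 without them). Chrnb2 was also higher with it (r = 0.861, exact permutation p = 0.00618, adjusted p = 0.0328; rho = 0.833, p = 0.0154, adjusted p = 0.158; r = 0.662 without them). These 4 relations held by Pearson's r after adjustment and not by rank. With group means removed r was −0.973 for Chrna7, 0.924 for Chrna3, 0.893 for Chrnb4 and 0.814 for Chrnb2 (exact permutation within groups, p = 0.00347, 0.0208, 0.0243 and 0.0156), and none passed after adjustment over the 30 relations (adjusted p = 0.104 for Chrna7 and 0.146 for the other genes). With batch means removed r was −0.969 for Chrna7, 0.968 for Chrna3, 0.954 for Chrnb4 and 0.866 for Chrnb2. Exact permutation within batches gave p = 0.25, 0.125, 0.25 and 0.375 (adjusted p = 0.489 for each), where no p below 0.125 is possible. These r cannot decide the relations, since each batch adds only the difference between its HDM and its saline library. HDM 1 and HDM 4 had the highest nodose sums. The part of the nodose markers in the differences between HDM and saline was not tested.

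With the sympathetic sum, Chrna6 was lower where it was higher (r = −0.911, exact permutation p = 0.00441, adjusted p = 0.0328; rho = −0.81, p = 0.0218, adjusted p = 0.158), and r was −0.783 without HDM 4 and saline 1. Chrm1 was higher with it (r = 0.899, exact permutation p = 0.00655, adjusted p = 0.0328; rho = 0.595, p = 0.132, adjusted p = 0.305), a relation that rested on these libraries, since r was 0.30 without them. With group means removed r was −0.89 for Chrna6 and 0.927 for Chrm1 (exact permutation within groups, p = 0.0312 and 0.0208, adjusted p = 0.156 and 0.146). With batch means removed it was −0.959 and 0.961 (exact permutation within batches, p = 0.25 and 0.125, adjusted p = 0.489 for both). The part of the sympathetic markers in the Chrna6 and Chrm1 values was not tested. The relations of Chrna3 (r = 0.786, and 0.098 without HDM 4 and saline 1) and Chrnb4 (r = 0.781, and −0.072 without them) also rested on these libraries, neither of which passed after adjustment (adjusted p = 0.102 and 0.103 by exact permutation). No receptor gene passed against the sum of 5 jugular neuron genes, among them Prdm12 and Mrgprd. The smallest adjusted p was 0.176, for Chrna7 (r = 0.678, exact permutation p = 0.0644). Chrna3 had r = −0.511 over the 8 libraries (exact permutation p = 0.195, adjusted p = 0.344). Without HDM 1 and saline 1, the libraries farthest from the median, r was 0.971 for Chrna7 and −0.977 for Chrna3, values of 6 libraries that were not tested.

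**Figure D4:**
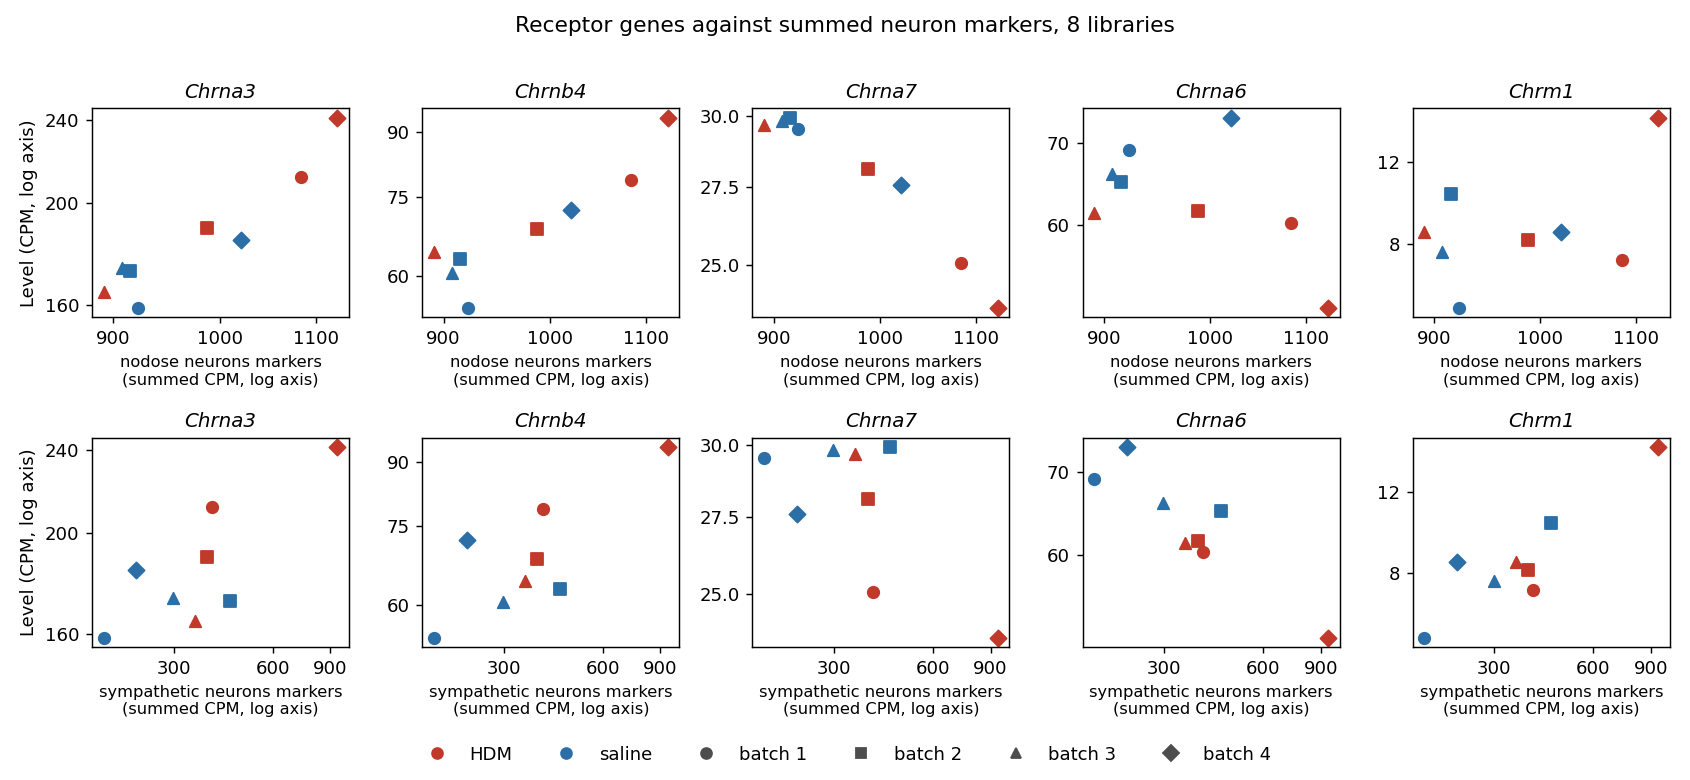
Levels of 5 receptor genes in CPM (y axes, logarithmic) against the summed CPM of nodose neuron markers (top row) and of sympathetic neuron markers (bottom row, both x axes logarithmic) in 8 libraries, HDM in red and saline in blue, with shapes for batches 1 to 4. In the top row Chrna7 is 29.7 CPM at the lowest nodose sum and 23.7 CPM at the highest, and HDM 4 stands alone at 946 CPM on the sympathetic axis.

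Among the 10 genes themselves, 45 pairs were compared over the 8 libraries. Chrna3 and Chrnb4 moved together (r = 0.964, exact permutation p = 0.000397, adjusted p = 0.00893; rho = 0.881, p = 0.00724, adjusted p = 0.109; r = 0.84 without HDM 1 and HDM 4), as did Chrnb4 and Chrnb2 (r = 0.958, exact permutation p = 0.000248, adjusted p = 0.00893; rho = 0.976, p = 0.000397, adjusted p = 0.0179; r = 0.908 without HDM 4 and saline 1). Chrna7 went against Chrna3 (r = −0.962, exact permutation p = 0.00117, adjusted p = 0.0132; rho = −0.762, p = 0.0368, adjusted p = 0.207; r = −0.768 without HDM 1 and HDM 4) and against Chrnb4 (r = −0.94, exact permutation p = 0.000794, adjusted p = 0.0119; rho = −0.833, p = 0.0154, adjusted p = 0.139; r = −0.766 without the same libraries). In all, 6 pairs passed by Pearson's r, the others being Chrna3 with Chrnb2 (r = 0.886, exact permutation p = 0.00258, adjusted p = 0.0232) and Chrna7 with Chrnb2 (r = −0.85, exact permutation p = 0.0058, adjusted p = 0.0435), and 1 passed by rank, Chrnb4 with Chrnb2. All 6 pairs lie among Chrna3, Chrnb4, Chrnb2 and Chrna7, the genes also related to the nodose sum over the same libraries. The pairs and those marker relations are therefore not independent of each other. Chrna6 and Chrnb3, neighbours on chromosome 8, were not among the pairs that passed (r = 0.042, exact permutation p = 0.917). With group means removed the 6 pairs had r between −0.942 and 0.946, each with its sign kept, and none passed after adjustment over the 45 pairs (exact permutation within groups, adjusted p from 0.0783 to 0.107). With batch means removed r ran from −0.988 to 0.958, also with each sign kept, and none passed (exact permutation within batches, p from 0.125 to 0.375, adjusted p from 0.375 to 0.625).

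For each gene, the 3 tested genes with the most similar log2 CPM over the 8 libraries were listed, by Pearson's r, as a description of 8 points among 17618 genes. Those of Chrna3 were Spsb4, Gatad2a and Scrn1 (r = 0.993, 0.987 and 0.982), and those of Chrnb4 were Ndn, Dpysl5 and Lrp11 (r = 0.988, 0.985 and 0.981). Chrna6 was most like Nudt4, Ufm1 and Tceanc (r from 0.965 to 0.972), Chrna7 most like Colgalt2, Kif13b and Gna14 (0.972 to 0.984), and Chrna4 most like Mtag2, Arhgef38 and Lysmd2 (0.955 to 0.983). Chrnb2 was most like Atp6v0a1, Pom121 and Ncam1 (0.984 to 0.986), and Chrnb3 most like Ndfip1, Endod1 and Rab14 (0.977 to 0.991). Chrm1 was most like Olfr78, Pycr1 and Xylt1 (0.955 to 0.960), Chrm2 most like Plppr4 and the pseudogenes Rpsa-ps5 and Rab11b-ps2 (0.953 to 0.988), and Chrm3 most like Arpc5l, Rpl36a-ps1 and R3hcc1 (0.959 to 0.969).

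The other genes of acetylcholine signalling were taken as 3 lists. Of 8 genes of acetylcholine synthesis, loading, uptake and breakdown, 0 passed with group alone, where 1.38% of all genes did. At an unadjusted edgeR p under 0.05 there were 3, against 18.1% of all genes. With the replicate block 2 rose, Ache and Colq, where 3.01% of all genes were called higher. Ache encodes acetylcholinesterase, which degrades acetylcholine, and Colq the collagen tail that anchors it outside the cell. Ache had 227.3, 217.2, 194.5 and 251.3 CPM in HDM 1 to 4, and 181.1, 186.9, 186.1 and 203.9 CPM in saline 1 to 4. The groups overlapped through HDM 3, with HDM higher in 4 of 4 batches (log2 fold change 0.23 with SE 0.067; edgeR adjusted p = 0.1 by group alone, 0.0296 once blocked). Colq averaged 32.6 ± 3.88 CPM across HDM pools and 27.2 ± 1.29 CPM across saline pools (log2 fold change 0.27 with SE 0.078; edgeR adjusted p = 0.103 by group alone, 0.0432 once blocked). With block and GC correction together Ache had 0.11 (adjusted p = 0.366) and Colq 0.17 (adjusted p = 0.223). Slc44a1, a choline transporter, and Bche, butyrylcholinesterase, gave −0.11 (SE 0.045) and −0.14 (SE 0.064) on the log2 scale and did not pass. Chat, the enzyme that makes acetylcholine, had 2 to 26 counts per library and averaged 0.56 ± 0.29 CPM over HDM pools and 0.31 ± 0.19 CPM over saline pools. Slc18a3, which loads acetylcholine into vesicles, averaged 0.79 ± 0.15 CPM over HDM pools and 0.60 ± 0.090 CPM over saline pools. Slc5a7, the transporter that takes up choline, averaged 52.3 ± 4.72 CPM over HDM pools and 52.4 ± 4.18 CPM over saline pools (log2 fold change −0.0021 with SE 0.070; edgeR adjusted p = 0.992). The median log2 fold change of these 8 genes was 0.12.

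Of 12 nicotinic receptor chaperones and Ly6 family modulators, 11 were tested and 0 passed with group alone, where 1.38% of all genes did. With the replicate block 1 rose, where 3.01% of all genes were called higher. This was Lynx1, the gene of a membrane-anchored protein that binds nicotinic receptors and dampens their response. It had 352.3, 371.3, 346.1 and 359.7 CPM in HDM 1 to 4, against 312.3, 333.1, 311.1 and 335.6 CPM in saline 1 to 4. All HDM libraries were above all saline libraries, as were 6.25% of the genes tested (log2 fold change 0.15 with SE 0.044; edgeR adjusted p = 0.112 by group alone, 0.0466 once blocked, and 0.552 with block and GC correction, where the value was 0.060). Ric3 and Tmem35a, chaperones that alpha7 needs to reach the surface, gave log2 fold changes of −0.028 (SE 0.053) and −0.057 (SE 0.045). Lypd1 gave 0.12 (SE 0.063), Lypd6 −0.20 (SE 0.112) and Lypd6b −0.25 (SE 0.131), and none of these 5 passed in edgeR. The 1 gene of the list at an unadjusted edgeR p under 0.05 was Lynx1, where 18.1% of all genes were under it. The list's median was −0.041.

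Of 26 genes of muscarinic receptor signalling, 25 were tested and 1 rose over all genes, Plcb3, a phospholipase C of the Gq pathway, where 1.23% of all genes were called higher. At an unadjusted edgeR p under 0.05 there were 7 higher and 2 lower of the 25, against 18.1% of all genes in either direction. Plcb3 had 696.5, 713.1, 645.4 and 718.1 CPM in HDM 1 to 4, and 581.9, 621.7, 581.0 and 605.2 CPM in saline 1 to 4. All HDM libraries were above all saline libraries, as were 6.25% of the genes tested (log2 fold change 0.21 with SE 0.047; edgeR adjusted p = 0.0439 by group alone, 0.016 once blocked). With block and GC correction it had 0.12 (adjusted p = 0.243), and without HDM 4 it had 0.20 (adjusted p = 0.132). Leaving out any 1 library other than HDM 3 left 0 genes of the lists called in edgeR. Gnai2, a Gi alpha subunit, passed once blocked (edgeR log2 fold change 0.15; adjusted p = 0.0902 by group alone, 0.0381 blocked, and 0.53 with block and GC correction, where the value was 0.058). Kcnj9, a subunit of the potassium channels that Gi-coupled receptors open, had 6.32 to 7.29 CPM in HDM and 4.84 to 5.54 CPM in saline and did not pass (log2 fold change 0.44 with SE 0.103; edgeR adjusted p = 0.0544 by group alone, 0.0574 once blocked). The list's median log2 fold change was 0.022, against −0.0055 over all genes.

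**Figure D5:**
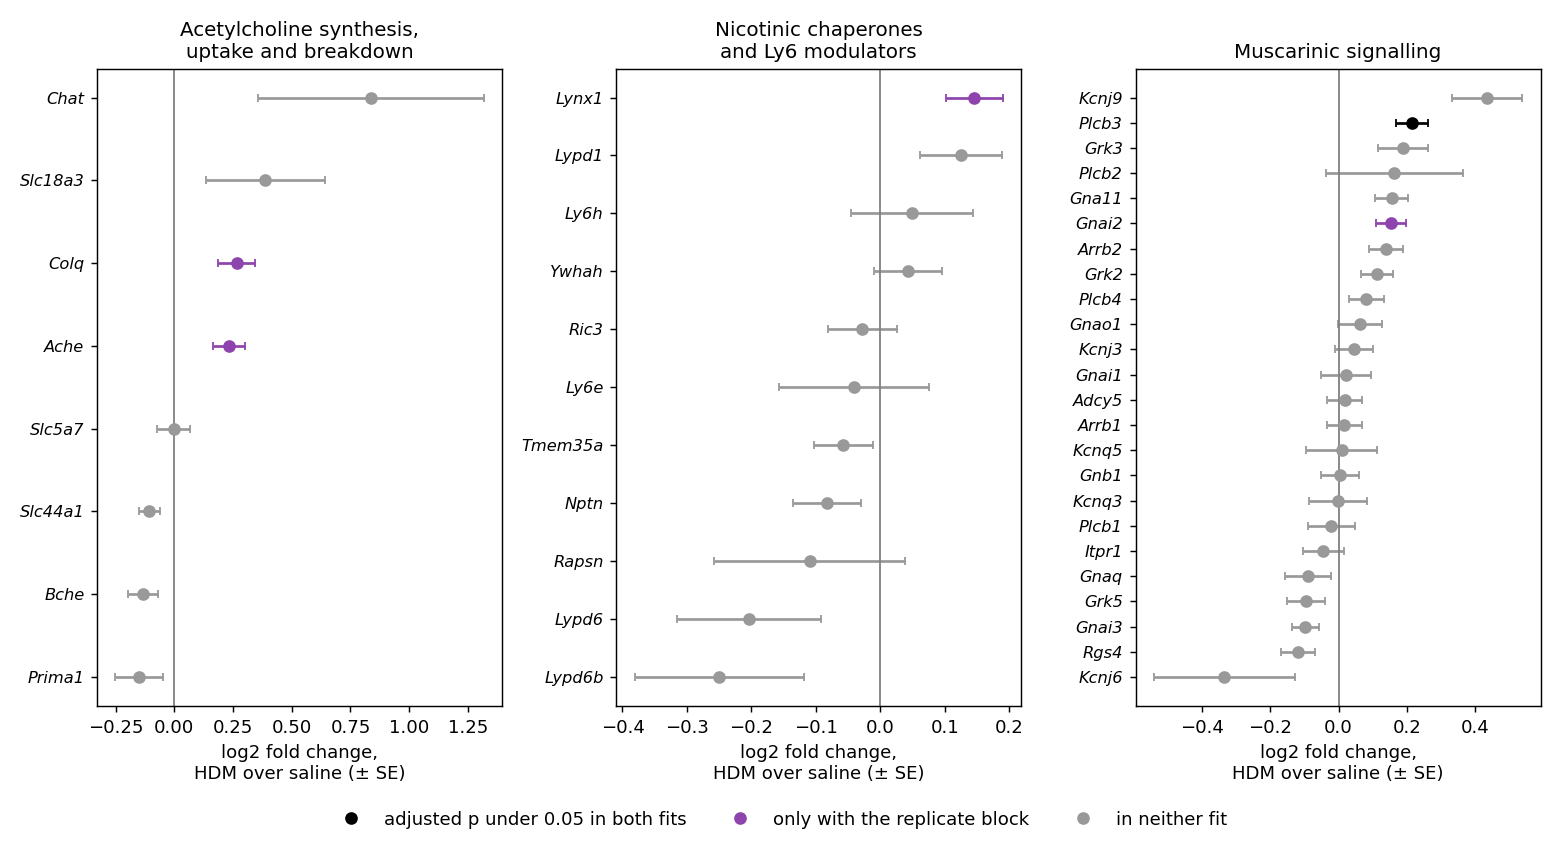
Log2 fold change of HDM over saline (x axes, points, with bars for ± SE, edgeR with group alone) of tested genes of 3 acetylcholine lists (1 muscarinic signalling gene is not drawn), in black where the adjusted p was under 0.05 in both fits, in purple where it was so with the replicate block, and in grey otherwise. Plcb3 is black at 0.21, Ache, Colq, Lynx1 and Gnai2 are purple between 0.15 and 0.27, and Chat has an SE of 0.48. The x axes of the panels differ in range.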

How the data were processed

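RNA of vagal ganglia was sequenced in 4 HDM and 4 saline libraries as paired reads of 50 bp from Illumina stranded mRNA libraries, per the labels' protocols. The deposited table holds raw counts of reads for each gene. They were made with featureCounts on GRCm38 (mm10), per the submitters' processing notes. Not given in the sources used here were the aligner, any version, the annotation and how strand was handled. Columns were assigned to samples by the names the labels give. The table also holds gene lengths in bases. Symbols, overlaps and transcript GC content come from GENCODE M21, where 55154 of 55335 genes had a symbol and 54899 the same span.

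Genes were filtered with filterByExpr and counts scaled with TMM in edgeR 4.0.16 (R 4.3.3), and HDM was compared with saline by its quasi-likelihood test (2-sided) on group alone. A call means a Benjamini-Hochberg adjusted p under 0.05 over all genes tested. Every log2 fold change is that of HDM over saline. CPM use TMM-scaled totals, errors are SD, and log2 CPM had a prior of 0.5. A floor of 3 counts covers counting error only. Alternatives were a robust dispersion, RLE and upper-quartile scaling, no filter, a filter of at least 1 CPM in 4 libraries, limma-voom 3.58.1, DESeq2 1.42.0, a threshold of 0.10, the replicate block, a GC correction (per-library natural spline of log2 CPM with 4 degrees of freedom, fitted above a mean log2 CPM of 3), both together, and leaving out each library or batch. Added after the data were seen were the block without batch 4, the marker relations, with and without group or batch means removed, and the ratio of Chrna6 to Chrnb3. The relations between pairs of receptor genes and the shares of summed RPKM were not planned in advance either.

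The batch labels pair the libraries. Once group means were removed, libraries of equal number had correlations of −0.051 to 0.033, and 0 of 8 libraries correlated best with its own number. The members, the lists and the alternatives were chosen with earlier results of these data known. Named genes were the 10 members, the other receptor genes, the called genes of each list or up to 4 with the smallest p, and the 3 genes most like each member, leaving out predicted genes; several further list genes were named for their role. Single values of a few list and marker genes are not reported here, and the list counts and marker sums include them.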

Additional observations from a re-analysis of the deposited data

Results flagged for a closer look

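Of 120 groups of 4 libraries checked, 8 had a library far from the other 3 (its gap to the nearest, as a share of the group's range, above Dixon's critical value), and chance flags about 1 in 20 groups. HDM 4 was the low library for Chrna6 (0.868) and the high one for Chrm1 (0.855) and for the summed sympathetic markers (0.924). The remaining ones were Chat, high in HDM 2 (0.964), Rapsn, low in HDM 3 (0.842), Gnaq, low in HDM 1 (0.901), Arrb2, low in HDM 3 (0.865), and Grk5, high in saline 4 (0.851).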

How the results depend on the processing

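The count of receptor genes called, 0 of 10, became 2 without a filter (Chrna6 lower, Chrnb4 higher), 1 in DESeq2 (Chrna6), 1 with the replicate block (Chrnb4) and 1 at an adjusted p under 0.10 (Chrna6), and ranged from 0 to 0 when a library or batch was left out. The count over all genes, 244, was 722 without a filter, 871 in DESeq2, 713 with the replicate block, 0 with the GC correction (2054 at an unadjusted p under 0.05), 27 with both, 130 with the block and without batch 4, 709 at an adjusted p under 0.10, and 0 to 376 when a library or batch was left out. Leaving out HDM 1 gave 0 (2449 genes with an unadjusted edgeR p under 0.05), leaving out HDM 2 gave 0 (2452) and leaving out saline 3 gave 0 (2373). The count was 60 without HDM 4, 97 without saline 2 and 376 without HDM 3, and 5, 0, 24 and 4 without batches 1 to 4. The count over the lists, 1, was 0 with RLE or upper-quartile factors, 3 without a filter, 6 in DESeq2, 5 with the block, 0 with the GC correction with or without the block, 2 with a robust dispersion, 0 with the block and without batch 4, 3 at an adjusted p under 0.10, and 0 to 4 when a library or batch was left out. Chrna3, Chrna4, Chrna6, Chrna7, Chrnb4 and Chrm3 kept their sign in all 24 alternatives each, with Chrna6 from −0.272 to −0.13 and Chrm3 from 0.215 (without batch 1) to 0.568 (without HDM 4). The threshold of 0.10 is 1 of the 24 and leaves every fold change as it was, so no sign could change there. Sign changes, none of them called, were those of Chrnb2 (−0.00157 with the GC correction, −0.000984 with block and GC correction), Chrnb3 (0.0401, 0.0477 and, with the block and without batch 4, 0.0554) and Chrm2 (−0.00221 without a filter and −0.0568 with the block and without batch 4). When 1 library was left out, Chrnb3 ran from −0.0825 to 0.0968, Chrm1 from −0.0154 to 0.405 and Chrm2 from −0.0986 to 0.0846, and over batches left out Chrnb3 had 0.0065 without batch 3 and 0.0545 without batch 4, and Chrm2 −0.0311 without batch 1 and −0.0698 without batch 4. The cause was not tested. Ordered by CPM without gene length, 4 of 10 genes kept their place. The replicate block changed no other call among the 10. Chrm3 and Chrna4 had at most 43 and 189 counts per library, and whether depth set their results was not tested.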
